A study of Homo sapiens with 26 samples.

Results

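Chromosome 18 is one of the smallest human autosomes and carries few genes for its length. It was described here through 746 bins of 100 kb on genome build hg19, all those of the chromosome with a value and a signal in at least 1 of 26 single cells. The file lists 781 bins for chromosome 18, of which 30 had no value and 5 were 0 in every cell. The 746 bins are 2.83% of the 26331 bins used across the genome. Chromosome 19, also small but dense in genes, had 559 used bins of 592.

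The cells came from KBM7, a human leukaemia line with a near-haploid karyotype, and all 26 are labelled as clone 5-8, haploid and expressing Dam alone, without a fusion partner. Dam was stabilised with 0.5 nM Shield1 for 15 h, and single cells from the smallest 2% that carried both Fucci cell cycle markers were sorted. Their DNA was cut with DpnI, ligated to adapters and amplified over 21 extension steps. The series title names lamin B1, whereas the design text and the labels of these cells give Dam alone, and the design text counts 124 cells, of which 26 were analysed here. Every cell belongs to 1 group and 1 clone and no label names separate cultures, so no p-values are given and errors are the SD between cells.

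Dam is a bacterial enzyme that methylates the adenine of GATC. Free Dam in a human nucleus leaves its mark mostly where chromatin is open, and DpnI cuts only marked sites, so a high ratio reads as more methylated fragments than the authors' expectation for that bin. Giemsa staining divides chromosomes into dark bands, which are usually poor in genes, late to replicate and often near the nuclear lamina, and light bands, which are usually richer in genes. Chromosome 18 tends to lie at the edge of the nucleus and the gene-dense chromosome 19 towards its middle. The RefSeq gene table (GRCh38.p14) lists 270 protein-coding genes on chromosome 18 and 1451 on chromosome 19.

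The sites that Dam can mark are short and frequent along the chromosome. The RefSeq start-site windows (250 bases before to 50 after the start, GRCh38.p14) of one gene from a high band and one from the lowest band are shown as examples, with each GATC in capitals. GATA6, a transcription factor gene of 18q11.2, has the window chr18:22169339-22169638 on the plus strand, and CDH7, a cadherin gene of 18q22.1, has the first of its windows at chr18:65750002-65750301 on the plus strand.
GATA6: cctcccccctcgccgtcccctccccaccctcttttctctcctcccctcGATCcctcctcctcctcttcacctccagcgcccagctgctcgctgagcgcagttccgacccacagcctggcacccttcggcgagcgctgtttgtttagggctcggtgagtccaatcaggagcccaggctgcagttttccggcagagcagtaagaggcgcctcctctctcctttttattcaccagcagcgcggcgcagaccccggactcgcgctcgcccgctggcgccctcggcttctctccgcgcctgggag
CDH7: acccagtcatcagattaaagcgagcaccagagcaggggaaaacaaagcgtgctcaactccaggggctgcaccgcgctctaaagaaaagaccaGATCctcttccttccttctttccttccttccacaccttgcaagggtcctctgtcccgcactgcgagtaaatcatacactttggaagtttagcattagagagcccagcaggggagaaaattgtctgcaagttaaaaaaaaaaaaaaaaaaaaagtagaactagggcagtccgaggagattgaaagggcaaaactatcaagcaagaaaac
Each window holds 1 GATC, a motif that reads the same on both strands. Over all such windows, 303 of 721 on chromosome 18 (42.0%) hold at least 1 GATC, against 827 of 1917 on chromosome 19 (43.1%) and 41.7% of all 35116 windows in the table. The windows of chromosome 18 average 1.94 sites per kb and those of chromosome 19 average 1.91. Their GC content was 54.8% ± 14.5 on chromosome 18 and 62.4% ± 9.33 on chromosome 19 (SD over windows). No measured ratio can be given to a single window, because the ratios are per 100 kb bin and on another build.

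The deposited ratios were read as observed over expected signal, and within a bin they are whole multiples of 1 step, from which counts were recovered. Totals ran from 20182 to 178941 counts per cell (median 42448.5), and 34.3% to 94.9% of used bins were above 0. Chromosome 18 held between 392 counts (cell 10) and 4363 counts (cell 1) per cell, and 35985 in all, against 46295 on chromosome 19. A single bin in a single cell therefore carries a large counting error. Except where bins are counted as positive, ratios below were divided by each cell's mean over all used bins. On that scale 1 is the genome average of the cell, and the values are called relative ratios. Fewer copies of a region and less methylation per copy cannot be told apart in these values.

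Cell 22 stood apart from the others. It had the lowest coverage (34.3%), the highest level on chromosome 18 of the 26 cells and the lowest on chromosome 19. Its profile over 75 windows of 1 Mb along chromosome 18 correlated with the mean of the other cells at r = 0.12, while the next lowest cell reached 0.63, the median cell 0.76 and the highest 0.90. In cell 22 the 4 windows of 5 Mb from 40000001 to 60000000 had relative ratios of 2.29, 2.59, 2.48 and 2.91, against medians of 0.802, 1.04, 0.721 and 0.858 in the other cells. The window from 25000001 to 30000000 was at 0.194 in cell 22, against a median of 0.513 in the others. For many of the values where this cell was the highest or lowest and changed the spread, the value without it is given. The cause of its profile was not tested.

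Chromosome 18 was low as a whole. Its mean relative ratio was 0.832 ± 0.154 (n = 26 cells), with a lowest cell at 0.509 (cell 10), a median of 0.809 and a highest at 1.21 (cell 22). It was below the genome average in 22 cells. Its level over the other autosomes with values was lower than that of every other chromosome of the 22 in the file except 4, 13 and X. Chromosome 8 was not analysed here, and the file gives 9 and 22 as the derivatives 9:22 and 22:9. Chromosome 18 was higher than chromosome 4 in 21 of 26 cells (mean log2 difference 0.18 ± 0.35) and higher than chromosome 13 in 18 (0.13 ± 0.26). Against chromosome X, the mean log2 difference was 0.01 ± 0.30, with 10 cells higher and 16 lower. Chromosome 18 was lower than chromosome 5 in 21 cells, by a mean log2 difference of -0.11 ± 0.35. Each of these mean differences is smaller than the SD between cells.

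Chromosome 19 lay far above it. Per cell, the log2 ratio of chromosome 18 to chromosome 19 averaged -0.96 ± 0.57, a fold of 0.515, and chromosome 18 was the lower of the pair in 25 of 26 cells. The exception was cell 22, and without it the mean was -1.03 ± 0.44. The distributions of single bins overlapped. The median bin of chromosome 18, averaged over cells, was at 0.666 and that of chromosome 19 at 1.52, while the upper quartile of chromosome 18, 1.10, lay above the lower quartile of chromosome 19, 0.969. Of the chromosome 18 bins, 90 lay above the median bin of chromosome 19, and 211 (28.3%) lay above the genome average, against 412 (73.7%) of chromosome 19.

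**Figure D1:**
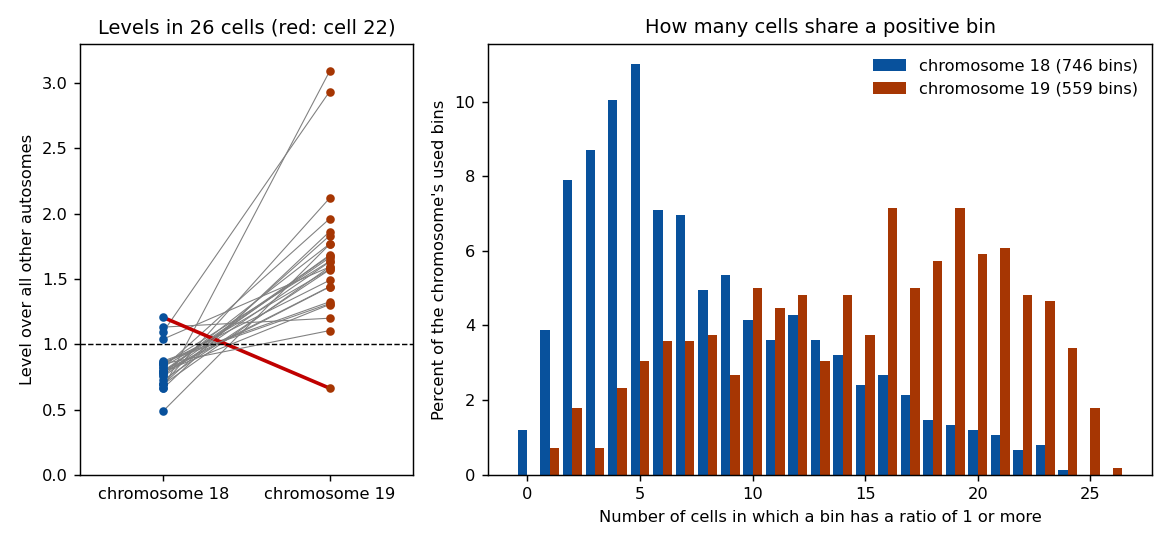
Left, the level of chromosome 18 and of chromosome 19 over all other autosomes (vertical axis, ratio without unit) in each of 26 cells, with a line joining the values of one cell and cell 22 in red. Right, the percent of each chromosome's used bins (vertical axis) by the number of cells in which the bin was positive (horizontal axis). Positive is a deposited ratio of at least 1, not divided by the cell mean. Most chromosome 18 bins are on the left side and most chromosome 19 bins on the right.

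Few bins of chromosome 18 were positive in most cells. Positive here means a deposited ratio of at least 1 in the cell concerned, not divided by the cell mean. These counts therefore depend on the level of the chromosome as well as on agreement between cells. Over windows of 1 Mb, the median cell correlated with the mean of the other cells at r = 0.76 on chromosome 18 and 0.69 on chromosome 19. By rank correlation the medians were 0.760 and 0.765. On chromosome 18, 20 of 746 bins (2.68%) were positive in at least 21 of the 26 cells, the 80% mark, against a background of 5.61% of all used bins and 20.9% on chromosome 19. At the other end, 319 bins (42.8%) were positive in at most 5 cells, against a background of 33.5% of all used bins and 8.59% on chromosome 19. With every cell thinned to 20000 counts, 165 of the 746 bins were rarely positive, against 19.3% of all used bins, a smaller excess. The most widely shared bin was positive in 24 cells, and 9 bins were positive in none. On chromosome 4 the shared and rare shares were 1.55% and 49.0%, on chromosome 5 they were 3.13% and 36.7%, and on chromosome 13 they were 1.36% and 45.4%.

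Within a cell, positive bins of chromosome 18 came in short runs. In an average cell 30.6% ± 5.62 of its bins were positive, against 57.0% ± 10.8 on chromosome 19, and the share was the lower one in 25 cells. Runs of neighbouring positive bins averaged 1.77 ± 0.264 bins on chromosome 18 and 3.07 ± 0.940 on chromosome 19, and they were shorter on chromosome 18 in 24 of 26 cells. The longest run of a cell averaged 8.85 bins on chromosome 18, with 16 bins as the highest (cell 19), against 18.8 bins on chromosome 19. Run length follows from the share of positive bins as well as from their grouping. In the mean profile of chromosome 18, bins 0.1 Mb apart correlated at r = 0.64 (729 pairs) and bins 0.5 Mb apart at 0.40. Bins 1, 2 and 5 Mb apart correlated at 0.19, 0.10 and -0.09. For chromosome 19 these 5 values were 0.51, 0.18, 0.08, 0.19 and -0.03. Chromosomes 4, 5 and 13 were like chromosome 18 at 0.1 Mb, with 0.67, 0.63 and 0.61. At 0.5 Mb they had 0.38, 0.29 and 0.43. The pairs share cells and overlap along the chromosome, so they are a description only.

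The short arm was higher than the long arm. The arms were split at the stretch from 15500001 to 18500000 that has no values and covers the centromere. The 151 short arm bins had a mean relative ratio of 0.971 ± 0.253, and the 595 long arm bins had 0.796 ± 0.162. Without cell 22 the long arm was at 0.775 ± 0.123. The log2 ratio of short to long arm was 0.27 ± 0.35, above 0 in 21 of 26 cells. Cell 22 gave the lowest value, -0.87, and cell 23 the highest, 0.98. Without cell 22 the mean was 0.31 ± 0.27. On chromosome 19 the short arm was also the higher one (log2 0.17 ± 0.30, 22 cells), with arm means of 1.76 ± 0.460 and 1.57 ± 0.555 for short and long.

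The part beside the centromere was higher than the rest of chromosome 18 on average, although single bands elsewhere were as high. The 96 bins within 5 Mb of the centromeric stretch on both sides had a mean relative ratio of 1.17 ± 0.317. The other 650 bins were at 0.782 ± 0.162, or 0.761 ± 0.125 without cell 22. In the centromere-proximal part the lowest cell was at 0.582 (cell 22), the median cell at 1.08 and the highest at 1.94 (cell 16). The value of cell 16 rests in part on 1 count in a bin of very low expectation. The part stood above the genome average in 19 cells. Without bins of low expectation (under 0.5 times the median bin), the part was at 1.21 ± 0.290, between 0.650 (cell 22) and 2.02 (cell 23), and above 1 in 22 cells. Within cells, the part exceeded the rest of the chromosome in 25 of 26, by a mean log2 difference of 0.55 ± 0.43, which corresponds to 1.47-fold. The exception was again cell 22 at -1.16. Without it the mean was 0.62 ± 0.25 and the lowest cell was at 0.27 (cell 7). Summed over cells, 5943 counts gave a ratio of 1.19 (exact Poisson 95% interval 1.16 to 1.22), an interval that covers counting error only.

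The raised part lay mainly on the long arm side. The 50 bins from 18500001 on had a mean relative ratio of 1.31 ± 0.316, above 1 in 22 cells, and exceeded the rest of the long arm in 25 cells by a log2 difference of 0.79 ± 0.45. The 46 bins on the short arm side had 1.01 ± 0.457, above 1 in 8 cells, or 1.09 ± 0.320 and 16 cells without bins of low expectation. Their log2 difference from the rest of the short arm was 0.0021 ± 0.50, with 12 cells higher and 14 lower. The long arm side exceeded the short arm side in 21 cells (log2 0.45 ± 0.54). On the short arm side, 10 bins had an expectation under 0.5 times the median bin and 1 to 9 counts each, which makes their ratios coarse. Without bins of such low expectation, that side exceeded the rest of the short arm by a log2 difference of 0.15 ± 0.41, with 19 cells higher, still less than the SD between cells.

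The corresponding part of chromosome 19 went the other way. Its 99 centromere-proximal bins had a mean relative ratio of 0.821 ± 0.258, against 1.83 ± 0.537 in its other 460 bins, lower in all 26 cells (log2 -1.15 ± 0.40). The log2 contrast of chromosome 18 minus that of chromosome 19 was 1.70 ± 0.71 and positive in 25 cells. Even so, the raised long arm side of chromosome 18 stayed below the average of chromosome 19 in 22 of 26 cells (log2 -0.32 ± 0.53).

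**Figure D2:**
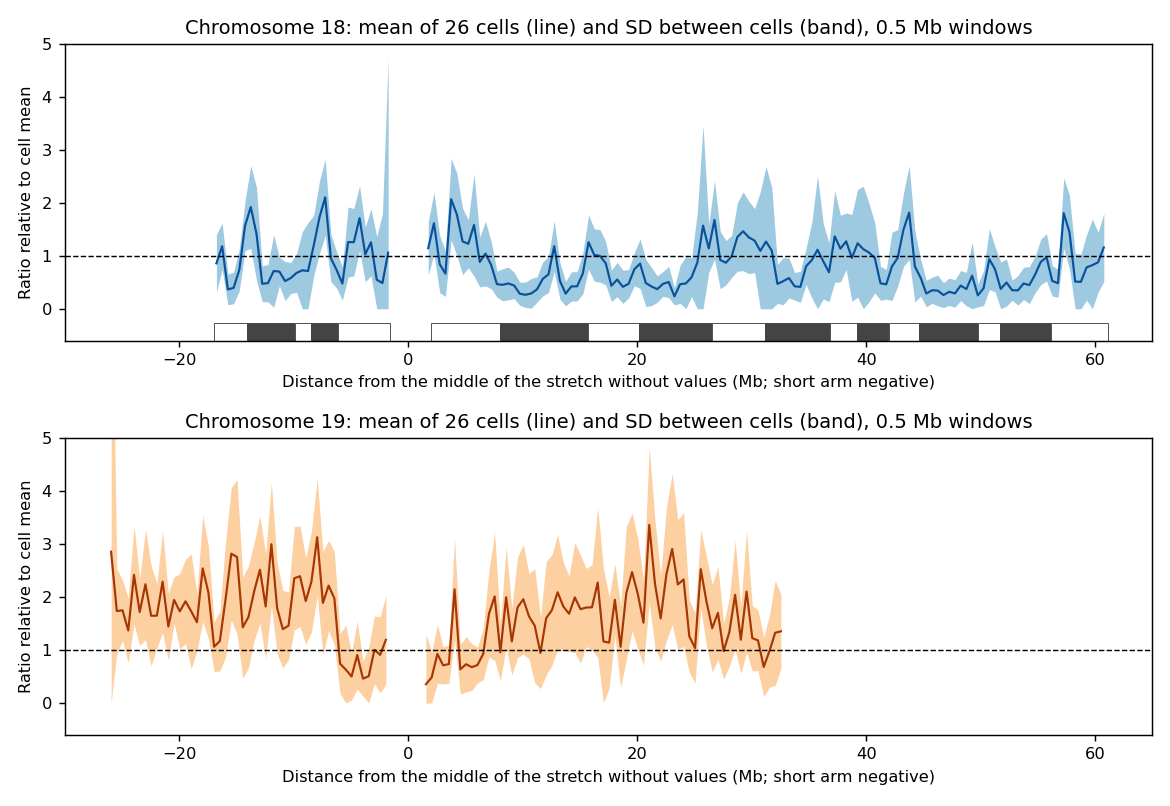
Mean relative ratio of 26 cells (vertical axis, line) with the SD between cells (shaded, drawn from 0 and cut at 5) in windows of 0.5 Mb along chromosome 18, above, and chromosome 19, below, by distance in Mb from the middle of the stretch without values. The strip under chromosome 18 marks its G-dark (filled) and G-light (open) bands; the line is mostly above 1 on the long arm next to the stretch and below 1 through most of the first dark band beyond, while that of chromosome 19 is low beside its stretch.

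The chromosome ends were slightly above the interior. The outermost 5 Mb at both ends had a mean relative ratio of 0.947 ± 0.198, against 0.814 ± 0.154 in the rest, a log2 difference of 0.21 ± 0.21 that was above 0 in 23 cells. The short arm end was at 0.940 ± 0.248, not above the short arm as a whole at 0.971 ± 0.253. The long arm end was at 0.954 ± 0.293, against 0.796 ± 0.162 for the whole long arm. The last bin of the chromosome, 78000001 to 78077248, had 0.196 times the median expectation, 35 counts in all and a mean of 3.68. Without that bin the long arm end was at 0.898 ± 0.295. Both ends together, without bins of low expectation, were at 0.924 ± 0.196. On chromosome 19 the ends were lower than the rest in 17 cells (log2 -0.03 ± 0.31).

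**Figure D3:**
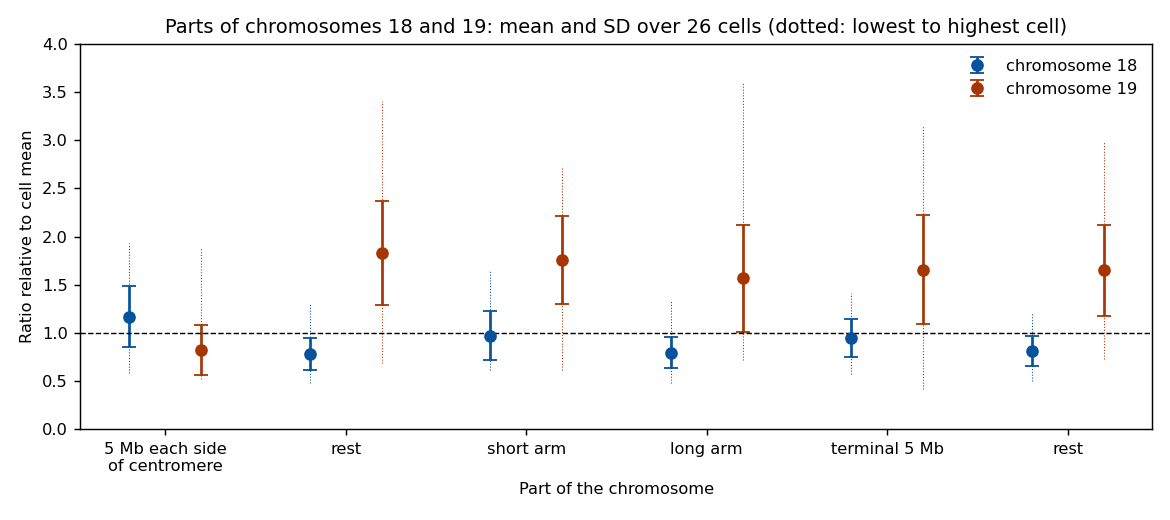
Mean relative ratio over 26 cells (points) with SD (bars) and the lowest to highest cell (dotted lines) for parts of chromosome 18 and, to its right, chromosome 19. The 5 Mb on each side of the centromere is the only part drawn where chromosome 18 lies above chromosome 19, at 1.17 against 0.821.

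From the tip of the short arm, band 18p11.32, which holds the thymidylate synthase gene TYMS, had a mean relative ratio of 0.804 ± 0.214 over 29 bins and no shared bin. The G-dark 18p11.31, home of the laminin gene LAMA1 and the homeobox corepressor gene TGIF1, was at 0.882 ± 0.297 with 4 shared bins of 42. The small G-light 18p11.23, with the receptor phosphatase gene PTPRM, averaged 0.700 ± 0.540, but the cells ran from 0.0842 (cell 26) to 3.05 (cell 22), and without cell 22 it was 0.606 ± 0.254. Next to it, the G-dark 18p11.22 was the highest band of the chromosome. It holds NDUFV2, a subunit gene of respiratory complex I, and VAPA, which encodes a protein of endoplasmic reticulum contact sites. Its 24 bins had a mean of 1.38 ± 0.364, with 0.782 in the lowest cell (cell 22), a median of 1.40 and 2.48 in the highest (cell 23). It was above 1 in 23 cells, the highest band in 13 cells, and above the rest of the short arm in all 26 (log2 0.63 ± 0.34). Against the average of chromosome 19 it was higher in 10 cells and lower in 16 (log2 -0.25 ± 0.56), a difference smaller than the spread. The last short arm band, 18p11.21, with the mitochondrial protease gene AFG3L2 and the phosphatase gene PTPN2, was at 1.03 ± 0.483, between 0.280 (cell 22) and 2.75 (cell 16). The value of cell 16 rests largely on 1 count in the bin from 15200001 to 15300000, where the expectation is 0.0095 times the median bin and that count gives a relative ratio of 73.4. Without bins of low expectation, 18p11.21 was at 1.12 ± 0.342, between 0.368 (cell 22) and 2.16 (cell 23), and 18 cells were above 1.

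On the long arm, 18q11.2 and 18q21.1 stood highest. The 5 used bins next to the centromeric stretch, in the centromere band 18q11.1, were left out of the bands by stain and had a mean relative ratio of 1.14 ± 0.505. Band 18q11.2, with GATA6, the lysosomal cholesterol transporter gene NPC1 and RBBP8, which acts in DNA end resection, had a mean relative ratio of 1.19 ± 0.283 over 60 bins. Its cells lay between 0.637 (cell 10) and 1.92 (cell 21), 20 of them above 1, and it held 9 of the 20 shared bins. The neighbouring G-dark 18q12.1, with the N-cadherin gene CDH2 and the desmosomal cadherin genes DSG2 and DSC2, was at 0.503 ± 0.126. No cell reached 1 there, the highest being 0.730 (cell 3), and 55 of its 77 bins were positive in at most 5 cells. Band 18q11.2 was higher than 18q12.1 in all 26 cells, by a log2 difference of 1.26 ± 0.41. The windows of 5 Mb have a border at the same place and so hold nearly the same bins. The highest, 20000001 to 25000000 at 1.18 ± 0.299, adjoins the window from 25000001 to 30000000 at 0.497 ± 0.127. That window was lowest only by a narrow margin, as the window from 65000001 to 70000000 was at 0.498 ± 0.190. Without cell 22 the order was reversed, at 0.509 ± 0.113 and 0.472 ± 0.135. In windows of 0.5 Mb the fall towards 18q12.1 lay inside 18q11.2. The mean was 0.824 at 7.25 Mb from the middle of the centromeric stretch and 0.465 at 7.75 Mb, before the band boundary at 8.00 Mb.

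Further out, 18q12.2, with the microtubule-binding protein gene MAPRE2, was at 0.738 ± 0.187, and 18q12.3, with SETBP1 and the lipid kinase gene PIK3C3, was at 0.645 ± 0.318. For 18q12.3 the value without cell 22 was 0.588 ± 0.132. Band 18q21.1, with SMAD2, a transducer of TGF-beta signals, and SMAD7, an inhibitor of the same pathway, was at 1.21 ± 0.233 and was above 1 in 22 cells. Band 18q21.2, with the netrin receptor gene DCC and the transcription factor gene TCF4, was at 0.766 ± 0.515, and at 0.677 ± 0.240 without cell 22, which alone reached 3.01. Band 18q21.31, with FECH, whose product completes haem, and the tRNA synthetase gene NARS1, was at 1.13 ± 0.418, or 1.07 ± 0.294 without cell 22, and 17 cells were above 1. Band 18q21.32, with the melanocortin receptor gene MC4R, was at 0.877 ± 0.520, and at 0.788 ± 0.251 without cell 22, again the highest at 3.12. Band 18q21.33, with the apoptosis inhibitor gene BCL2, was at 1.15 ± 0.351, and 14 cells were above 1.

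The lowest band was 18q22.1, which holds the cadherin genes CDH7 and CDH19. Its 52 bins had a mean relative ratio of 0.376 ± 0.146, with 0.124 in the lowest cell (cell 10), a median of 0.377 and 0.706 in the highest (cell 22). It was the lowest band in 19 of 26 cells, and 43 of its 52 bins were positive in at most 5 cells. BCL2's band 18q21.33 exceeded it in every cell by a log2 difference of 1.66 ± 0.67, and the average of chromosome 19 exceeded it in 25 cells, the log2 ratio of 18q22.1 to chromosome 19 being -2.19 ± 0.78. Beyond it, 18q22.2 was at 0.615 ± 0.219 and 18q22.3, with the synaptic organiser gene CBLN2, at 0.566 ± 0.143. The terminal 18q23, with the myelin basic protein gene MBP and the transcription factor gene NFATC1, was at 0.954 ± 0.293, and 9 cells were above 1. Without cell 22 this band was at 0.919 ± 0.236. Without its last bin, of low expectation, it was at 0.898 ± 0.295, with 7 cells above 1. Genes are named here for the band they are known to lie in, and no bin's value belongs to any of them.

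**Figure D4:**
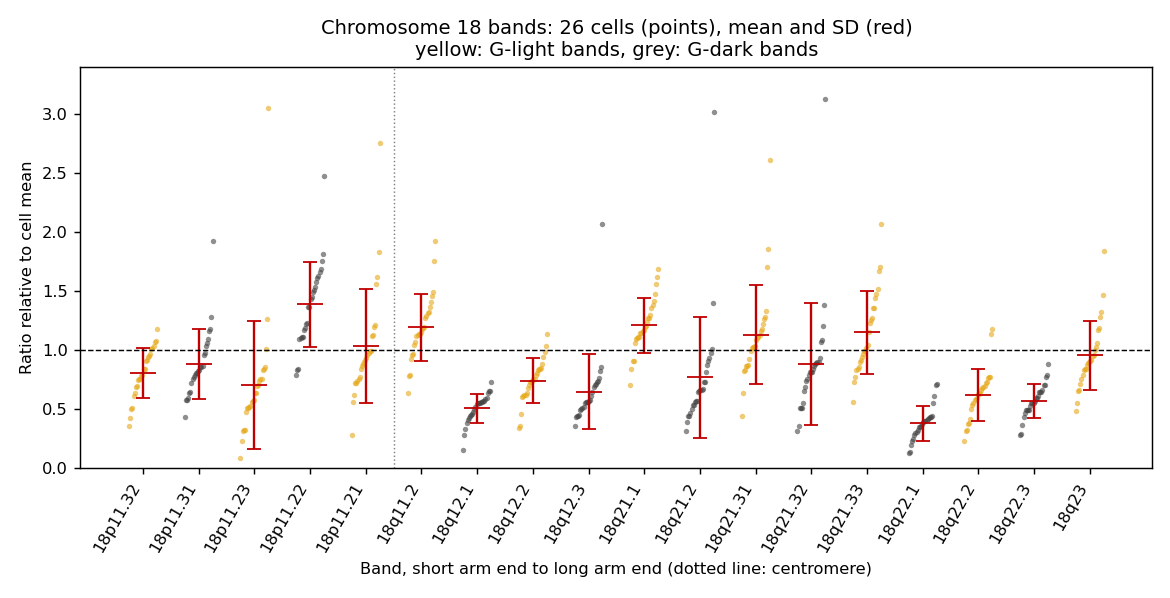
Relative ratio (vertical axis) of each chromosome 18 band from the short arm end to the long arm end, with 26 cells as points (yellow in G-light, grey in G-dark bands) and the mean and SD in red. Band 18p11.22 is highest at 1.38 and 18q22.1 lowest at 0.376, and the isolated points near 3 in 18p11.23, 18q21.2 and 18q21.32 are cell 22.

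Staining and ratio ran together on the long arm and in the opposite sense on the short arm. Over the whole chromosome, G-light bands had a mean relative ratio of 0.994 ± 0.170 (356 bins) and G-dark bands 0.677 ± 0.176 (385 bins). G-light was higher in 25 cells (log2 0.57 ± 0.26). Without cell 22, G-dark bands were at 0.652 ± 0.122 and the log2 difference was 0.61 ± 0.20. On the long arm the means were 1.02 ± 0.163 in G-light and 0.597 ± 0.205 in G-dark bands, G-light higher in 25 cells, with cell 22 the exception (log2 0.82 ± 0.34). Without cell 22, long arm G-dark bands were at 0.564 ± 0.116 and the log2 difference was 0.86 ± 0.26. On the short arm they were 0.898 ± 0.274 in G-light and 1.06 ± 0.276 in G-dark bands, G-light lower in 23 cells (log2 -0.26 ± 0.27, and -0.19 ± 0.21 without bins of low expectation). The contrast on the long arm minus that on the short arm was 1.08 ± 0.47, positive in 25 cells. The short arm rests on 5 bands, of which only 2 are G-dark.

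Neighbouring bands gave the same picture pair by pair. Of 12 pairs on the long arm, the G-light member was higher on average in all 12, and in at least 21 cells in 11 of them. The remaining pair, 18q22.2 over 18q22.3, had a log2 difference of 0.08 ± 0.65 with the G-light band higher in 15 cells. Of 4 pairs on the short arm, the G-light member was higher on average in none, and in 1 to 10 cells. The largest of these was 18p11.23 against 18p11.22, at a log2 difference of -1.21 ± 1.07, with the G-light 18p11.23 higher in 1 cell (cell 22).

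The 20 bins shared by at least 21 cells formed 14 islands of neighbouring bins. Of these, 11 were single bins and 3 had several. The longest island ran over 5 bins from 20600001 to 21100000 in 18q11.2, with a mean relative ratio of 2.38 ± 1.14, a lowest cell at 0.995 and 635 counts in all. The island from 9700001 to 9900000 in 18p11.22 had a mean of 2.73 ± 1.51 over 2 bins, and its second bin was the highest of the chromosome among bins of ordinary expectation, at 2.96 ± 1.81. The island from 3400001 to 3600000 in 18p11.31 had 2.26 ± 1.09 over 2 bins. Among single bins, 19200001 to 19300000 in 18q11.2 was positive in the most cells, 24, at 2.70 ± 1.58. The bin from 74200001 to 74300000 in 18q23 had 2.79 ± 1.69, the bin from 47000001 to 47100000 in 18q21.1 had 2.70 ± 2.17, and the bin from 55200001 to 55300000 in 18q21.31 had 2.45 ± 1.39. The other 7 single-bin islands, which began at 2900001, 3200001, 12500001, 19000001, 21200001, 22100001 and 74800001, had means from 1.60 to 2.31.

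Some bins with a high mean fell short of the limit of 21 cells. The bins 46500001 to 46600000 and 43700001 to 43800000, both in 18q21.1, had means of 2.92 ± 2.80 and 2.86 ± 2.51. Each was positive in 19 cells, against 7 for the median bin of chromosome 18. Their highest cells were at 13.1 and 9.34. The bin from 57500001 to 57600000 in the G-dark 18q21.32 had a mean of 2.74 ± 2.37. The bin from 3600001 to 3700000 in the G-dark 18p11.31 had 2.62 ± 1.76. Both were also positive in 19 cells. Just outside the limit of 21 cells were 9 bins at 20 cells and 10 at 19.

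Islands were unevenly placed along the chromosome. The background over all used bins was 5.61%. The centromere-proximal part held 10 of the 20 shared bins, 10.4% of its 96 bins, and the remaining 10 were 1.54% of the other 650. Its long arm side held 9 (18% of 50 bins) and its short arm side 1 (2.17% of 46 bins). The part was named with earlier results of these data known, so its share is a description. The short arm held 7 shared bins (4.64% of its bins) and the long arm 13 (2.18%). G-light bands held 14 (3.93%) and G-dark bands 6 (1.56%), all 6 on the short arm, 4 in 18p11.31 and 2 in 18p11.22. The long arm had no shared bin in any G-dark band. On chromosome 19 there were 68 islands with 117 bins, the longest of 6 bins.

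The 319 rarely positive bins formed 102 low blocks, 23 of which spanned at least 5 bins and held 187 bins together. The longest covered 25 bins from 26100001 to 28600000 in 18q12.1, with a mean relative ratio of 0.325 ± 0.103, a highest cell at 0.552 and 489 counts in all. The next, 15 bins from 61900001 to 63400000 in 18q22.1, had 0.303 ± 0.163. A block of 13 bins from 69300001 to 70600000 had 0.355 ± 0.135. The 2 blocks of 11 bins, from 31100001 to 32200000 and from 38000001 to 39100000, had 0.412 ± 0.216 and 0.391 ± 0.199. The expectation of these 5 blocks was between 0.995 and 1.05 times the median bin. The longest low block on chromosome 19 had 5 bins.

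**Figure D5:**
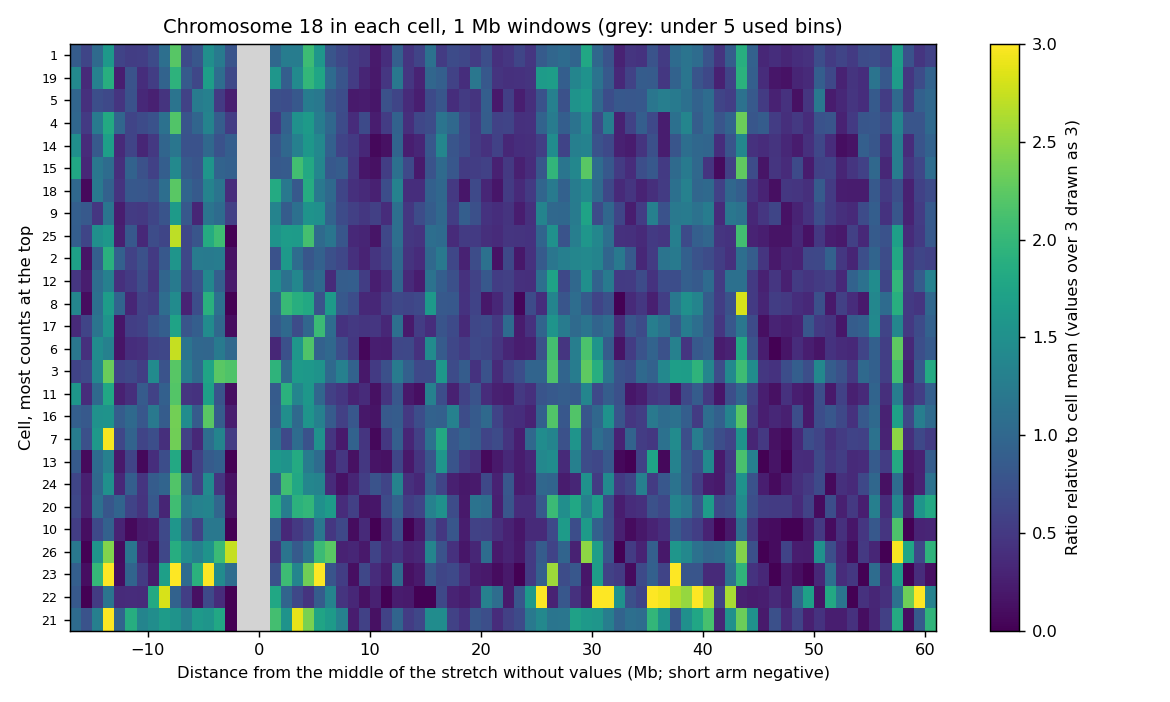
Relative ratio (colour, values over 3 drawn as 3) of chromosome 18 in windows of 1 Mb (horizontal axis, distance in Mb from the middle of the stretch without values, short arm negative) for each of 26 cells (rows, most counts at the top). Bright columns recur in most cells on the short arm, just beyond the centromere and further out in 18q21.1, 18q21.33 and 18q23. Dark columns recur in 18q12.1 and 18q22.1, and cell 22 departs from the pattern with a bright long arm block.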

How the data were processed

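The deposited file holds, for each cell, a linear ratio in every 100 kb bin of hg19; from the authors' file name and cell means near 1 it was read as observed over expected. Per the submitters' processing notes, cutadapt and Bowtie2 2.1.0 were used, with no role given; for counting, masking and the expectation, the sources used here name no method. Each of the 26 columns was matched to its cell by number.

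Bins without a value (3792 of 30376) and bins at 0 in all cells (253) were left out. Whole counts were recovered as the smallest whole numbers in the ratios of a bin (largest distance from a whole number 6.72e-07, tolerance 0.001), which fixes a bin's count only up to a common factor. Band boundaries were typed by hand from the textbook hg19 ideogram and not checked against a table, and a bin went to the band holding its midpoint. Gene names per band are textbook positions, and all 30 were found on chromosome 18 in the RefSeq table. Named regions were every band outside the centromere bands, islands of at least 2 bins, the 10 highest bins or islands, the 5 longest low blocks and the extreme 5 Mb windows. Members, regions and lists were chosen with earlier results of these data known. The steps were tested on simulated counts. Computation used Python 3.11.15 with scipy 1.17.1, pandas 2.3.3 and numpy 2.4.6, and figures were drawn with matplotlib 3.10.9.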

Additional observations from a re-analysis of the deposited data

How the results depend on the processing

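Of 81 alternatives over 8 results, 70 kept the direction and the size within 1 SD between cells, or a count within 1.5 times. Apart from splits by arm, the level of chromosome 18 over the other autosomes stayed between 0.803 and 0.857, its log2 ratio to chromosome 19 between -1.07 and -0.89, short over long arm between 0.16 and 0.32, the centromere-proximal contrast between 0.26 (10 Mb wide) and 0.64, G-light over G-dark between 0.52 and 0.73, and ends over the rest between 0.14 and 0.24. Splits by arm, added after seeing the data, changed 2 results. The short arm alone gave -0.26 for G-light over G-dark, or -0.19 without bins of low expectation. The short arm side alone gave 0.0021 for the centromere-proximal part, or 0.15 without those bins; the cause of the difference between arms was not tested. Counts of bins followed the definition. With positive at the cell mean or more, shared bins numbered 23 (3.08% against 6.09% of all used bins). Rare bins then numbered 294 (39.4% against 31.4%). Shared bins numbered 82 with positive at 0.5 or more (11.0% against 17.8% of all used bins), 0 at 2 or more (against 0.460%), 86 at 60% of cells (11.5% against 18.8%) and 1 at 90% of cells (0.134% against 1.23%). Rare bins numbered 165 with every cell thinned to 20000 counts (165 of 746 bins, against 19.3% of all used bins), 61 with positive at 0.5 (8.18% against 6.86%), 625 at 2 (83.8% against 75.1%) and 97 at 10% of cells (13.0% against 9.98%), so at equal depth the excess of rare bins was smaller than that of 42.8% against 33.5%. Without cell 22 there were 27 shared bins (3.62% against 6.92% of all used bins) and 337 rare bins (45.2% against 35.8%). Depth limits single bins: in the cell of lowest coverage 34.3% of used bins are above 0. Cells were not paired with each other, because all form 1 group and their labels name no pairs. Comparisons of regions were made within cells.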
